A study of Homo sapiens with 23 samples.

Results

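CDK-TCIP1 at 10 nM was the lowest dose given to SUDHL5 cells, and this dose was set against matched-time treatment with the comparison compounds Neg1 and Neg2. The members were chosen by sample title alone: the 2 libraries of cells that had received 10 nM CDK-TCIP1 for 2 h, which were all libraries at that dose, and the 4 libraries of cells that had received 30 nM Neg1 (2 libraries) or 30 nM Neg2 (2 libraries) for 2 h. They make up 6 of the 23 libraries of the series. Beside them stand CDK-TCIP1 at 30 nM for 2 h (4 libraries), at 100 nM for 2 h (3 libraries) and at 30 nM for 4 h (3 libraries), Neg1 and Neg2 at 30 nM for 4 h (2 libraries each) and DMSO at 4 h (3 libraries). All cells were 1 human line from a diffuse large B-cell lymphoma, grown in serum and exposed to the same final share of DMSO. The comparison compounds were given at a higher dose than the 10 nM of CDK-TCIP1, the labels do not describe how their structures differ from it, and vehicle was harvested at 4 h only.

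BCL6 is a transcriptional repressor that germinal centre B cells need and on which many lymphomas depend. It holds its target genes silent by recruiting corepressors through its BTB domain. CDK9 with cyclin T forms P-TEFb, the kinase that releases RNA polymerase II from its pause near promoters, and an inactive pool of P-TEFb is held in a complex of 7SK RNA with HEXIM1 and MEPCE. CDK-TCIP1 joins a ligand of the BCL6 BTB domain to a ligand of CDK9 in a single molecule, and the lowest dose asks which mRNAs move when little of it is present.

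The 6 libraries held 18586053 to 22887823 estimated counts, within the range of 17396484 to 26373153 over all libraries. B cell markers were abundant in all 6: CD79A had 13378 to 15420 counts at 10 nM and 12307 to 16178 counts under Neg1 or Neg2, and MS4A1 had 9299 to 11020 counts at 10 nM and 10246 to 11586 counts under Neg1 or Neg2. None of 6 tested B cell markers passed the test. The T cell genes CD2 and CD7 and the myeloid genes S100A8, S100A9 and MPO had 0 counts in all 6 libraries, and CD14 had at most 10. Decorin (DCN), a fibroblast gene, had 918 to 1173 counts at 10 nM and 921 to 1154 counts under Neg1 or Neg2, while COL3A1 had 0 in all 6. On principal components, Neg2 at 2 h replicate 1 stood apart from the other Neg2 library (17.4 against -0.60 on the third component), and 100 nM replicate 1 from the other 100 nM libraries (27.8 against 13.3 and 13.5 on the second). Neg1 and Neg2 at 2 h differed in 0 of 17743 genes (percent called 0; edgeR quasi-likelihood test, Benjamini-Hochberg adjustment), with 1126 genes at an unadjusted p under 0.05.

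At 10 nM, 2403 of 17743 genes tested were called changed against the mean of Neg1 and Neg2 at 2 h (13.5%; edgeR quasi-likelihood test, adjusted p under 0.05, n = 2 and 4 libraries). Of these, 1204 were higher (6.79%) and 1199 lower (6.76%). Most changes were small: the median rise of called genes was 0.37 on the log2 scale and the median fall was -0.41. Of the 10086 genes at or above 2 in average log2 CPM (a TMM-scaled count relative to the size of the library), 92.3% lay within 0.5 of no change. Called changes of at least 1 in size were more often rises, with 238 genes higher (1.34%) and 112 lower (0.631%). In 6036 genes (34% of those tested, 17% higher and 17% lower) the 2 libraries at 10 nM did not overlap the 4 of Neg1 and Neg2, and this held for 2359 of the called genes. Set against Neg1 alone, 10 nM changed 1540 genes (8.68%; 4.15% higher and 4.53% lower), and against Neg2 alone 1872 (10.6%; 5.07% higher and 5.48% lower). Against DMSO, harvested at the later time, 2317 were called (13.1%; 5.93% higher and 7.12% lower). The same rule called 6582 genes at 30 nM (37.1%; 19.1% higher and 18% lower) and 7959 at 100 nM (44.9%; 22% higher and 22.9% lower) against the same 4 libraries. Without the 2 libraries that stood apart, 1159 genes were higher and 1152 lower at 10 nM. With 1 of the 2 libraries at 10 nM left out, 518 were higher and 460 lower (without replicate 1) or 523 higher and 632 lower (without replicate 2). Counts scaled by transcript length were the deposited TPM summed per gene and rescaled to each library's total, without multiplying a length back in. With them 23630 genes were tested, 426 were higher and 311 lower, and 675 of the 2403 genes (28.1%) were called again.

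**Figure D1:**
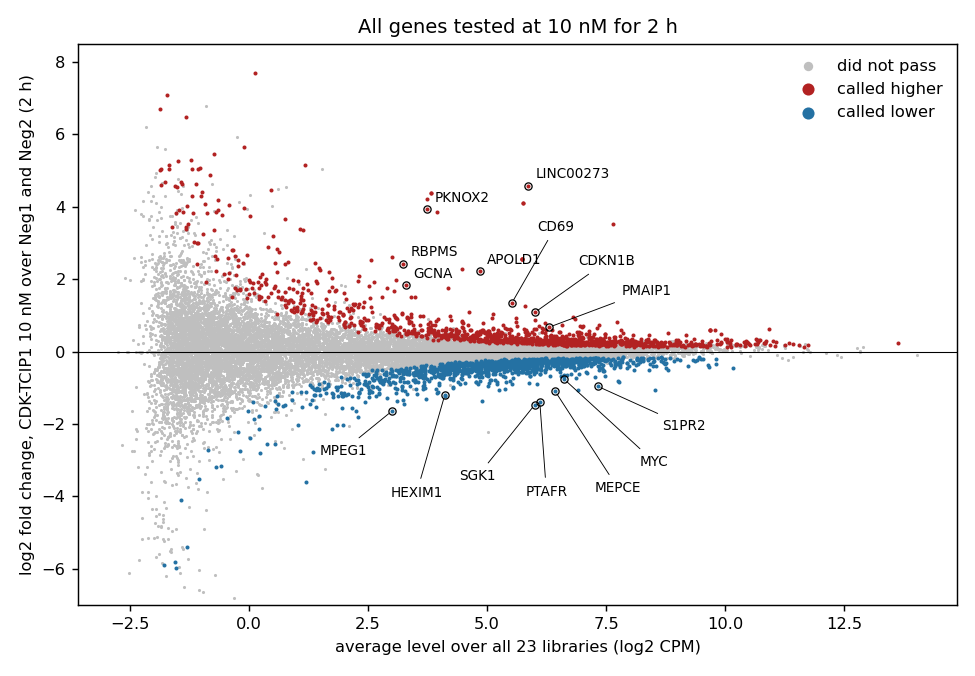
Log2 fold change of CDK-TCIP1 at 10 nM over the mean of Neg1 and Neg2 at 2 h (vertical axis) against the average level in log2 CPM over all 23 libraries (horizontal axis), 1 point for each of 17743 genes. Red points are the 1204 genes called higher and blue points the 1199 called lower. Grey points did not pass, and circled genes are described in the text.

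The genes described next as the largest rises and falls were chosen as called, protein-coding, not overlapping between the groups and at or above 2 in average log2 CPM over all 23 libraries. Their separation and call were therefore fixed by the choice, and a gene such as PKNOX2 passed the level filter through the treated groups in which it was high. PKNOX2, a homeodomain transcription factor (chromosome 11, 125164687 to 125433389, GRCh38), had 4.92 and 5.69 CPM at 10 nM, against 0.444 and 0.669 CPM under Neg1 and 0 and 0.398 CPM under Neg2. Both libraries at 10 nM lay far above all 4 others. The log2 fold change was 3.93 ± 0.39 (SE; edgeR adjusted p = 1.12e-07). ADAMTSL4, a secreted matrix protein (chromosome 1, 150549369 to 150560937), had 3.50 and 3.07 CPM at 10 nM, against 0.197 and 1.24 CPM under Neg1 and 0.302 and 0.574 CPM under Neg2. All 6 values were low, those at 10 nM the highest, and the change was 2.53 ± 0.37 (edgeR adjusted p = 3.91e-05). RBPMS, an RNA-binding protein, had 11.9 and 15.2 CPM at 10 nM, against 2.22 and 2.16 CPM under Neg1 and 3.77 and 2.03 CPM under Neg2. Its rise of 2.43 ± 0.20 (edgeR adjusted p = 6.73e-09) missed the threshold in counts scaled by transcript length, at 1.94 with an adjusted p of 0.0779.

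APOLD1, an early response gene best known in blood vessel endothelium (chromosome 12, 12725917 to 12829975), had 31.9 and 26.1 CPM at 10 nM, against 6.91 and 4.69 CPM under Neg1 and 8.0 and 5.21 CPM under Neg2. Its log2 fold change was 2.23 ± 0.19 (edgeR adjusted p = 1.02e-08). The lipoxygenase ALOX12 rose by 2.09 ± 0.27, CCDC17 by 1.97 ± 0.24, the lactase gene LCT by 1.92 ± 0.29 and the germ cell antigen GCNA by 1.83 ± 0.17. None of these 4 genes exceeded 3.4 CPM in any Neg1 or Neg2 library, and each was above 5 CPM in both libraries at 10 nM. ENSG00000266086 rose by 2.27 ± 0.26, but it overlaps SRSF1 on the same strand, so the division of reads between them is uncertain. The spans of APOLD1 and RBPMS also overlap a tested gene on the same strand, DDX47 and ENSG00000279041, with the same limit. SAMD8, related to sphingomyelin synthases, ranked second with 15.4 and 21.1 CPM at 10 nM, against 8.98 and 0.257 CPM under Neg1 and 2.87 and 1.02 CPM under Neg2. Its Neg1 libraries lay far apart, its change of 2.61 ± 0.86 passed narrowly (edgeR adjusted p = 0.0439), and the call was lost with DESeq2 (adjusted p = 0.184) and without either library at 10 nM (0.11 and 0.215).

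The largest falls included a kinase and several cell surface proteins. SGK1, a kinase downstream of phosphoinositide 3-kinase (chromosome 6, 134169246 to 134318112), had 38.2 and 39.3 CPM at 10 nM, against 103 and 108 CPM under Neg1 and 110 and 108 CPM under Neg2. Its log2 fold change was -1.47 ± 0.11 (edgeR adjusted p = 6.38e-10), and the groups were well separated. PTAFR, the receptor of platelet-activating factor, had 44.3 and 39.0 CPM at 10 nM, against 113 and 103 CPM under Neg1 and 116 and 104 CPM under Neg2, a change of -1.39 ± 0.09 (edgeR adjusted p = 5.25e-11). Both libraries at 10 nM were below all 4 of the comparison compounds. MPEG1, the pore-forming protein perforin-2, fell by 1.65 ± 0.21, the membrane adaptor SCIMP by 1.57 ± 0.22, FNDC1 by 1.38 ± 0.13, the tumour necrosis factor receptor TNFRSF1B by 1.36 ± 0.21, the O-glycan enzyme B3GNT6 by 1.33 ± 0.15 and the cyclic AMP phosphodiesterase PDE4D by 1.28 ± 0.24. The edgeR adjusted p was 0.000583 for PDE4D and lower for the other 5. FNDC1 overlaps the tested gene FNDC1-IT1 on the same strand. The call of PDE4D was lost in length-scaled counts (adjusted p = 0.205). PEDS1-UBE2V1, a read-through of PEDS1 and UBE2V1 whose reads cannot be told from theirs, fell by 1.81 ± 0.44, and LINC02693 fell by 1.64 ± 0.48. Without replicate 2 at 10 nM, both missed the threshold (adjusted p = 0.168 and 0.12), and so did LINC02693 without replicate 1 (0.193).

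**Figure D2:**
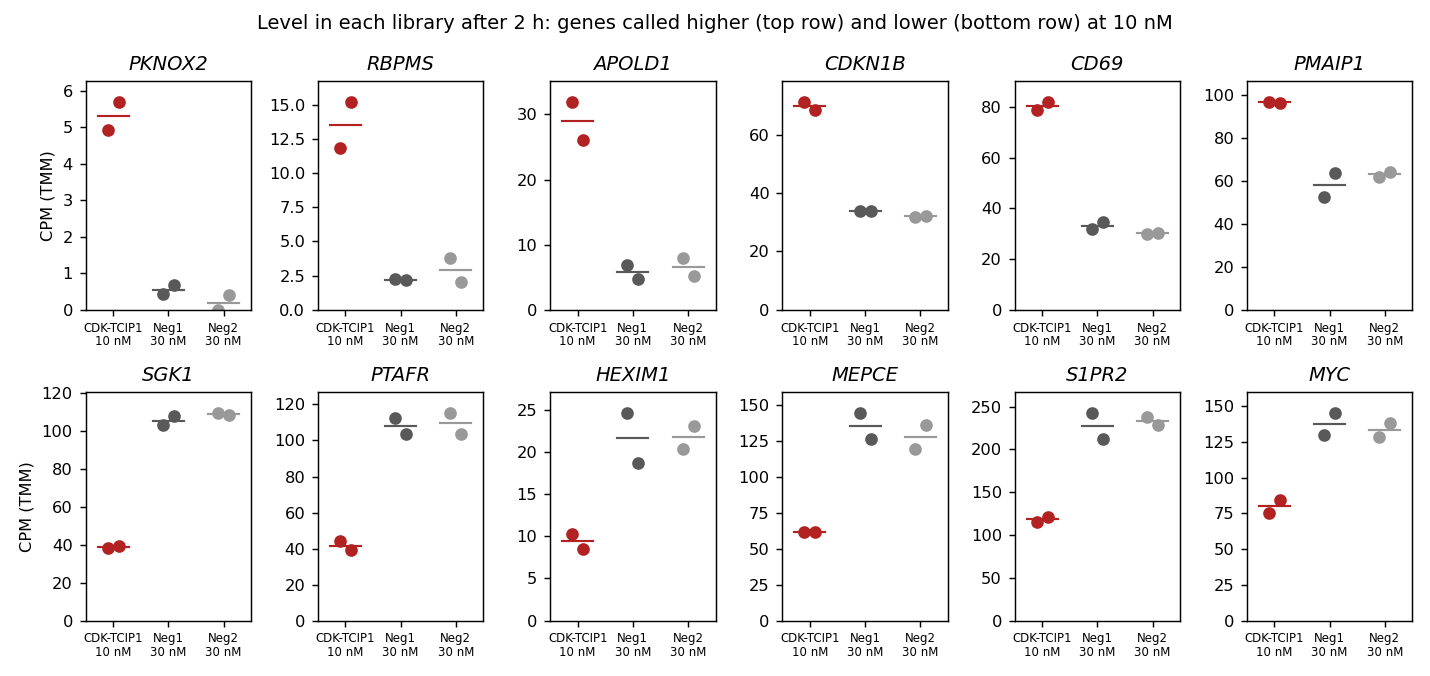
Level in CPM after TMM (vertical axis, from 0) in each library of CDK-TCIP1 10 nM, Neg1 30 nM and Neg2 30 nM at 2 h, for 6 genes called higher (top row) and 6 called lower (bottom row). Points are libraries and bars are group means. In each of the 12 genes both points at 10 nM lie on one side of all 4 points of Neg1 and Neg2.

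Genes known as direct targets of BCL6 moved in both directions at 10 nM. Of 36 listed targets 30 could be tested, 3 were higher, 3 lower (10% each, against 6.79% and 6.76% of all genes) and 24 did not pass, with a median log2 change of -0.04 (0.01 over all genes tested). CD69, an early activation antigen of lymphocytes (chromosome 12, 9752486 to 9760901), had 78.9 and 82.0 CPM at 10 nM, against 31.8 and 34.7 CPM under Neg1 and 30.0 and 30.4 CPM under Neg2. This was the largest rise of the list, 1.34 ± 0.11 (edgeR adjusted p = 4.3e-09), with no overlap. CDKN1B, the cell cycle inhibitor p27 (chromosome 12, 12715058 to 12722371), had 71.2 and 68.4 CPM at 10 nM, against 33.9 and 34.0 CPM under Neg1 and 31.9 and 32.3 CPM under Neg2, a rise of 1.08 ± 0.09 (edgeR adjusted p = 5.41e-09). The levels within each group agreed closely. CD74, the invariant chain, rose by 0.16 ± 0.05, while JUN fell by 0.85 ± 0.12, MYC by 0.76 ± 0.09 and the interferon receptor chain IFNAR1 by 0.29 ± 0.09. The plasma cell regulator PRDM1 changed by 1.04 ± 0.74 at 0.651 CPM and did not pass (edgeR adjusted p = 0.407). BCL6 itself had 329 and 340 CPM at 10 nM, against 407 and 387 CPM under Neg1 and 369 and 367 CPM under Neg2. That change of -0.19 ± 0.05 passed (edgeR adjusted p = 0.00914) but not without replicate 1 at 10 nM (0.177) or in length-scaled counts (0.222).

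CDKN1B and APOLD1 lie next to each other on the plus strand, with APOLD1 starting 3.55 kb below the end of CDKN1B, and both rose. The 250 bases before the RefSeq start of each gene are shown with those of HEXIM1, the largest fall in the P-TEFb system, so that the promoters of neighbours that rose can be read beside one whose gene fell. They are RefSeq sequences of GRCh38.p14, 5′ to 3′, and CG pairs are in capitals. The RefSeq start of CDKN1B lies inside the wider GENCODE span given for that gene.
CDKN1B, chr12:12717118-12717367, plus strand: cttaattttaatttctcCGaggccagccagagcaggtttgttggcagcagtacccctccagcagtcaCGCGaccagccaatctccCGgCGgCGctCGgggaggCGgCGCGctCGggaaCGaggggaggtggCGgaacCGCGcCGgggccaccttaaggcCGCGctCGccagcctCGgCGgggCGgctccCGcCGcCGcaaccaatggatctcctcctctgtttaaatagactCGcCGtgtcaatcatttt
APOLD1, chr12:12725667-12725916, plus strand: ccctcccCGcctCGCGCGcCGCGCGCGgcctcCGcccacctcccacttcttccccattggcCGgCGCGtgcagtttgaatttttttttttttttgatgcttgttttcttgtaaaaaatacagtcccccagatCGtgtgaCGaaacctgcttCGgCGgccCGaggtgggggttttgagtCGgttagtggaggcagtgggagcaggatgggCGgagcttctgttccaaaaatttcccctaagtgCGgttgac
HEXIM1, chr17:45148225-45148474, plus strand: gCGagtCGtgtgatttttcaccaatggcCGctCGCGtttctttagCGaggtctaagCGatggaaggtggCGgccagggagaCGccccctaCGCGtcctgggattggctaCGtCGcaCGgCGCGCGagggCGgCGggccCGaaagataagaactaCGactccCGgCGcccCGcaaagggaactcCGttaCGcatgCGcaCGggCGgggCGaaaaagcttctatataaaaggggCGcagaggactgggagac
The windows held 27, 20 and 31 CG pairs in that order. Only that of HEXIM1 held the letters TATAAA in the last 50 bases before the start, which 1.86% of 10434 tested protein-coding genes with a window held. Among called genes with a window 1.43% of those higher and 3.04% of those lower held them. Among those changed by at least 1 the shares were 4.82% of 83 higher and 3.77% of 53 lower. None of the 3 held TTCCTNGAA on either strand, letters like those that BCL6 binds. Among called protein-coding genes with a window these letters occurred in 8 of 838 higher (0.955%) and 5 of 920 lower (0.543%), against 111 of 10434 tested protein-coding genes (1.06%) and 439 of 27305 promoters in the table (1.61%). A match of letters in such a window is a description and not a binding site.

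The kinase that CDK-TCIP1 binds and the complex that holds it in reserve moved in opposite directions at 10 nM. CDK9 (chromosome 9, 127785679 to 127790787) had 70.6 and 67.6 CPM at 10 nM, against 45.3 and 47.2 CPM under Neg1 and 45.0 and 44.4 CPM under Neg2, a rise of 0.60 ± 0.09 (edgeR adjusted p = 6.55e-05). Its cyclin partners rose too, CCNT1 by 0.57 ± 0.07 and CCNT2 by 0.48 ± 0.06. In CCNT1 the libraries were 167 and 162 CPM at 10 nM, against 103 and 112 CPM under Neg1 and 120 and 109 CPM under Neg2. HEXIM1, which inhibits P-TEFb when bound to 7SK RNA, had 10.3 and 8.54 CPM at 10 nM, against 24.7 and 18.7 CPM under Neg1 and 20.4 and 23.1 CPM under Neg2. It fell by 1.21 ± 0.15 (edgeR adjusted p = 4.68e-06), and MEPCE, the enzyme that caps 7SK RNA, by 1.09 ± 0.09 (edgeR adjusted p = 2.76e-09). MEPCE (chromosome 7, 100428790 to 100434126) had 61.8 and 61.5 CPM at 10 nM, against 145 and 126 CPM under Neg1 and 119 and 136 CPM under Neg2. HEXIM2 and the 7SK-binding protein LARP7, at -0.63 ± 0.22 and 0.07 ± 0.07, did not pass. So 3 of the 7 members tested were higher and 2 lower (42.9% and 28.6%, against 6.79% and 6.76% of all genes). In length-scaled counts CCNT1 missed the threshold (adjusted p = 0.0651), and 1 member was higher and 2 lower.

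Related machinery of transcription and splicing showed single changes except for the CLK kinases and L cyclins. Of 9 tested members of that list 4 rose (44.4%) and none fell, against 6.79% higher and 6.76% lower over all genes. Those that rose were the splicing kinases CLK2 (0.65 ± 0.07) and CLK3 (0.53 ± 0.08) and the cyclins CCNL1 (0.64 ± 0.08) and CCNL2 (0.52 ± 0.07). CLK2 had 83.6 and 87.3 CPM at 10 nM, against 58.2 and 57.9 CPM under Neg1 and 49.0 and 53 CPM under Neg2, and the groups did not overlap. The count of 4 was the same in each alternative run. POLR2A, which encodes the catalytic subunit of RNA polymerase II, had 224 and 239 CPM at 10 nM, against 349 and 309 CPM under Neg1 and 348 and 318 CPM under Neg2. It fell by 0.51 ± 0.08 (edgeR adjusted p = 4.1e-05). Of 13 transcriptional kinases and partners 1 rose and 2 fell (7.69% and 15.4%). Beside POLR2A these were CDK12, which fell by 0.25 ± 0.05, and CDK11B, which rose by 0.26 ± 0.06. Both lost their call without replicate 1 at 10 nM (adjusted p = 0.0764 for CDK12 and 0.111 for CDK11B). In the super elongation complex, 1 of 9 rose, AFF1 (1.09 ± 0.24), and 1 fell, MLLT3 (-0.41 ± 0.10), which is 11.1% each way. AFF1, the scaffold of the complex, had 6.45 and 5.04 CPM at 10 nM, against 2.22 and 3.66 CPM under Neg1 and 3.22 and 1.72 CPM under Neg2, and missed the threshold without replicate 1 at 10 nM (adjusted p = 0.077) and in length-scaled counts (0.486). Among 15 pausing factors and BET proteins, SUPT6H rose by 0.28 ± 0.05 (6.67% of the list), and NELFA and BRD2 fell by 0.42 ± 0.07 and 0.28 ± 0.07 (13.3%). MLLT3 missed the threshold without replicate 2 at 10 nM (adjusted p = 0.131) and BRD2 without either library at 10 nM (0.0505 and 0.0581).

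Genes of cell death changed in both directions at 10 nM. Of 13 pro-apoptotic members of the BCL2 family, 2 rose (15.4%, against 6.79% of all genes) and none fell. PMAIP1, the BH3-only protein NOXA, had 97.0 and 96.5 CPM at 10 nM, against 52.8 and 63.9 CPM under Neg1 and 62.0 and 64.5 CPM under Neg2. Its rise was 0.67 ± 0.08 (edgeR adjusted p = 1.53e-06), and both libraries at 10 nM were above all 4 others. BNIP3L rose by 0.21 ± 0.06, a call that was lost without replicate 2 at 10 nM (0.08, adjusted p = 0.649), without replicate 1 of Neg1 (0.125) or of Neg2 (0.054) and in length-scaled counts (0.5). BCL2L11, the BH3-only protein BIM, had 145 and 141 CPM at 10 nM, against 138 and 145 CPM under Neg1 and 152 and 143 CPM under Neg2, and its change of -0.01 ± 0.07 did not pass (edgeR adjusted p = 0.949). BBC3, known as PUMA, was at -0.10 ± 0.15, and the death receptor FAS at 0.22 ± 0.15, both overlapping between the groups and neither passing. Among 11 anti-apoptotic genes, BCL2L2 rose by 0.52 ± 0.14 and MCL1 by 0.22 ± 0.06, and CFLAR, which blocks caspase-8, fell by 0.26 ± 0.07. That made 18.2% higher and 9.09% lower, against 6.79% and 6.76% of all genes. In length-scaled counts BCL2L2, MCL1 and CFLAR all missed the threshold (edgeR adjusted p = 0.213 to 0.561). MCL1 had 808 and 762 CPM at 10 nM, against 675 and 694 CPM under Neg1 and 662 and 664 CPM under Neg2. The call of MCL1 was lost without replicate 1 at 10 nM (0.19, adjusted p = 0.169) and that of CFLAR without replicate 2 (-0.20, adjusted p = 0.269) or Neg2 replicate 2 (0.0852). BCL2L2 lost its call without either library at 10 nM (adjusted p = 0.0707 and 0.179) and without Neg2 replicate 1 (0.0749). BCL2 changed by -0.72 ± 0.27 at 1.80 CPM and did not pass (edgeR adjusted p = 0.0813).

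Of 18 tested death receptors and caspases, 2 rose (11.1%, against 6.79% of all genes) and 5 fell (27.8%, against 6.76%). TNFRSF10D, a decoy receptor that binds TRAIL without passing on the death signal, had 11.8 and 11.4 CPM at 10 nM, against 4.29 and 4.43 CPM under Neg1 and 3.67 and 3.93 CPM under Neg2. It rose by 1.51 ± 0.13 (edgeR adjusted p = 9.77e-09), and the TRAIL receptor TNFRSF10A by 0.28 ± 0.09, a call lost without any 1 of the 6 libraries (adjusted p = 0.0517 to 0.18). Among the 5 falls were those of APAF1 (-0.69 ± 0.10), the scaffold of the apoptosome, CASP2 (-0.55 ± 0.07), RIPK1 (-0.37 ± 0.11) and DIABLO (-0.33 ± 0.08). In length-scaled counts 1 was higher and 2 were lower. Of 25 tested targets of p53, 4 were higher and 4 lower (16% each, against 6.79% and 6.76% of all genes). ZMAT3 (0.45 ± 0.06), DDB2, TP53INP1 and CCNG1 rose, and BTG2 (-0.68 ± 0.09), PLK3, SESN2 and CDIP1 fell, while MDM2 was at 0.02 ± 0.06 and CDKN1A at -0.26 ± 0.12, neither passing. DDB2 missed the threshold without replicate 2 at 10 nM (adjusted p = 0.0579), and CDIP1 in length-scaled counts (0.578). ZMAT3 had 110 and 107 CPM at 10 nM, against 80.7 and 83.2 CPM under Neg1 and 79.8 and 73.5 CPM under Neg2. At 30 nM and 4 h, in other libraries, 20 of the same 25 were higher and 3 lower against Neg1 and Neg2 of that time (18.5% and 19.7% of all genes). Dose and time both differ between these comparisons, and the difference between them was not tested.

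Genes of the germinal centre programme fell more often than they rose. Of 25 tested, 10 were lower (40%, against 6.76% of all genes) and 2 higher (8%, against 6.79%), with a median log2 change of -0.11. S1PR2, the sphingosine receptor that keeps B cells within germinal centres (chromosome 19, 10221433 to 10231331), had 116 and 121 CPM at 10 nM, against 243 and 212 CPM under Neg1 and 238 and 229 CPM under Neg2. Its fall of 0.96 ± 0.08 (edgeR adjusted p = 2.76e-09) was the largest of the list, and the groups were far apart. SERPINA9, a serpin of germinal centre B cells, had 97.6 and 97.0 CPM at 10 nM, against 160 and 171 CPM under Neg1 and 151 and 164 CPM under Neg2, and fell by 0.73 ± 0.08. Other called falls included GCSAM, LMO2, SPIB, POU2AF1, P2RY8 (-0.33 ± 0.06), KLHL6 and BCL6. MYBL1 (0.34 ± 0.06) and IRF8 (0.21 ± 0.04) rose, IRF8 without a call when replicate 2 at 10 nM was left out (adjusted p = 0.0783). Among 9 tested receptors of lymphocyte migration, which share S1PR2, P2RY8 and CD69 with other lists, 2 rose and 2 fell (22.2% each way). The integrin chain ITGB1 rose by 0.36 ± 0.05 and CD69 also rose, while S1PR2 and P2RY8 fell. Germinal centre counts of falls ran from 7 to 9 with 1 library left out and were 6 in length-scaled counts. At 30 nM and 4 h, 16 of the 25 were lower and 4 higher, against 19.7% and 18.5% of all genes.

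The B cell receptor pathway showed isolated changes in its adaptors. The linker BLNK had 63.1 and 68.2 CPM at 10 nM, against 82.7 and 94.4 CPM under Neg1 and 97.6 and 97.6 CPM under Neg2, and fell by 0.50 ± 0.07 (edgeR adjusted p = 2.75e-05). MALT1 fell by 0.34 ± 0.07 and its partner BCL10 rose by 0.34 ± 0.09, as did the kinase PRKCB (0.26 ± 0.09). Without replicate 1 at 10 nM the calls of MALT1 (adjusted p = 0.0534), BCL10 and PRKCB were lost, and PRKCB lost its call without any 1 of the 6 libraries. The other 15 of the 19 members tested did not pass, so 10.5% were higher and 10.5% lower, against 6.79% and 6.76% of all genes. Of 19 NF-kB targets, 5 were lower and 1 higher (26.3% and 5.26%, against 6.76% and 6.79% of all genes). CD83 fell by 0.71 ± 0.12, LTA by 0.90 ± 0.22, TNF by 0.67 ± 0.18, TRAF1 by 0.59 ± 0.12 and IRF1 by 0.57 ± 0.13, whereas TNFAIP8 rose by 0.25 ± 0.07. CD83 had 11.5 and 12.6 CPM at 10 nM, against 20.2 and 23 CPM under Neg1 and 17.3 and 18.5 CPM under Neg2. Without replicate 1 at 10 nM, LTA missed the threshold (-0.68, adjusted p = 0.18), as did TNFAIP8 without replicate 2 (0.18, adjusted p = 0.287) and without replicate 2 of Neg1 (0.0822) or of Neg2 (0.0606).

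MYC and several other short-lived transcripts of growth control fell. MYC had 75.3 and 84.3 CPM at 10 nM, against 130 and 146 CPM under Neg1 and 129 and 138 CPM under Neg2, a change of -0.76 ± 0.09 (edgeR adjusted p = 4.93e-06). Of 11 tested genes of the MYC network 5 fell, MYC, MAX, MNT, MGA and MLXIP, and 1 rose, MXD3 (45.5% and 9.09%, against 6.76% and 6.79% of all genes). MXD3 lost its call without either library at 10 nM (adjusted p = 0.269 and 0.0689), without Neg1 replicate 2 (0.105) and without Neg2 replicate 1 (0.0686), and MNT without either library at 10 nM (0.0534 and 0.0527). With replicate 1 at 10 nM left out 1 of the 11 was lower, and in length-scaled counts also 1. Of 27 immediate early and other short-lived transcripts, 9 fell and 3 rose (33.3% and 11.1%), with a median of -0.46. JUN had 8.75 and 9.59 CPM at 10 nM, against 18.2 and 15.2 CPM under Neg1 and 15.9 and 17.1 CPM under Neg2. FOSL2 fell by 0.99 ± 0.21, BTG2 by 0.68 ± 0.09, the phosphatases DUSP2 and DUSP5 by 0.57 ± 0.11 and 0.56 ± 0.13, JUND by 0.51 ± 0.07 and NR4A1 by 0.46 ± 0.14. FOSB fell by 1.45 ± 0.41, with 2.02 and 1.01 CPM at 10 nM, against 7.70 and 3.30 CPM under Neg1 and 2.82 and 3.31 CPM under Neg2, and missed the threshold without Neg1 replicate 1 (adjusted p = 0.0915) or replicate 2 at 10 nM (0.266). FOSL2 was at -0.03 in length-scaled counts (adjusted p = 1) and missed the threshold without replicate 1 at 10 nM (0.0586). CD69, IER2 (0.29 ± 0.06) and BTG1 (0.28 ± 0.09) rose, so the short-lived transcripts did not move as 1 block.

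The stress response of the endoplasmic reticulum and of amino acid shortage fell in part. Of 17 genes tested, 8 were lower (47.1%, against 6.76% of all genes) and none higher, with a median of -0.29. VLDLR, a lipoprotein receptor, had 88.1 and 81.2 CPM at 10 nM, against 166 and 172 CPM under Neg1 and 203 and 159 CPM under Neg2, a change of -1.05 ± 0.08 (edgeR adjusted p = 1.1e-09). CHAC1, which degrades glutathione, had 21.8 and 21 CPM at 10 nM, against 41.8 and 41.7 CPM under Neg1 and 32.8 and 42.9 CPM under Neg2, and fell by 0.89 ± 0.13. DDIT3, the stress factor CHOP, fell by 0.89 ± 0.13, CEBPB by 0.67 ± 0.10, TRIB3 by 0.55 ± 0.07, HERPUD1 by 0.43 ± 0.08, the chaperone HSPA5 by 0.34 ± 0.07 and SESN2 by 0.29 ± 0.09. ATF4, at -0.14, did not pass. The count of falls was 6 to 8 with 1 library left out and 7 in length-scaled counts. At 4 h and 30 nM, 13 of the 17 were lower and none higher, against 19.7% and 18.5% of all genes.

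Cytosolic ribosomal protein genes rose by small amounts. Of 41 tested, 21 were higher (51.2%, against 6.79% of all genes) and none lower, with a median of 0.22, and their summed level was 58826 to 62878 CPM at 10 nM and 49157 to 55298 CPM under Neg1 or Neg2. RPS12 had 691 and 602 CPM at 10 nM, against 483 and 495 CPM under Neg1 and 406 and 497 CPM under Neg2, the largest rise of the list (0.46 ± 0.07). The number called depended on single libraries, being 1 without replicate 1 at 10 nM, 9 without replicate 2, 8 without Neg2 replicate 1 and 30 without Neg2 replicate 2. None was called lower in any of these. In length-scaled counts 12 were higher. Of the 13 genes encoded by mitochondrial DNA, 2 were lower (15.4%, against 6.76% of all genes) and none higher. These were MT-ND4L (-0.44 ± 0.14) and MT-ND6 (-0.25 ± 0.08), and neither kept its call without either library at 10 nM.

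Cell cycle genes shifted by small amounts. Among 26 G2/M genes 6 were lower (23.1%, against 6.76% of all genes) and none higher, among them the kinesins KIF20A (-0.31 ± 0.09) and KIF11 (-0.29 ± 0.05), with 2 to 5 lower when 1 library was left out and 2 lower in length-scaled counts. KIF20A was at -0.13 without replicate 2 at 10 nM (adjusted p = 0.501) and -0.14 in length-scaled counts (0.678), and also missed the threshold without Neg1 replicate 2 (0.0838) or Neg2 replicate 1 (0.0553). Of 24 genes of G1/S and replication, CDC45 (0.33 ± 0.05), E2F1, TYMS and MCM5 rose, and RRM2, CCND3 (-0.34 ± 0.06) and CCNE2 (-0.34 ± 0.08) fell (16.7% and 12.5%). E2F1, RRM2 and CCNE2 missed the threshold without either library at 10 nM (adjusted p = 0.066 to 0.23), RRM2 also without replicate 1 of Neg1 (0.0872) or of Neg2 (0.104) and without Neg1 replicate 2 (0.0553), and E2F1 without Neg2 replicate 1 (0.0521). Of 15 FOXO-related genes and CDK inhibitors CDKN1B rose (6.67%), and GADD45B (-0.82 ± 0.20) and CCNG2 (-0.35 ± 0.07) fell (13.3%). Without replicate 2 at 10 nM GADD45B was at -0.68 and lost its call. In 20 tested histone genes 1 passed, H1-2 (5%, against 6.79% of all genes higher), and its call was lost without replicate 1 at 10 nM (0.22, adjusted p = 0.456) and without replicate 1 of Neg1 (0.102) or of Neg2 (0.135). Among 28 interferon-stimulated genes STAT2 rose (0.58 ± 0.10) and IRF9 fell (-0.67 ± 0.17), although both encode subunits of one transcription factor, and the other 26 did not pass (3.57% each way, below the 6.79% and 6.76% of all genes). In length-scaled counts STAT2 was at 0.29 and IRF9 at -0.77, neither passing (adjusted p = 0.409 and 0.104), and IRF9 also missed the threshold without replicate 1 at 10 nM (0.214). Of 12 heat shock genes 1 rose (8.33%), HSP90AB1 (0.18 ± 0.04), and 11 did not pass. Without replicate 2 at 10 nM HSP90AB1 was at 0.15 and lost its call.

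**Figure D3:**
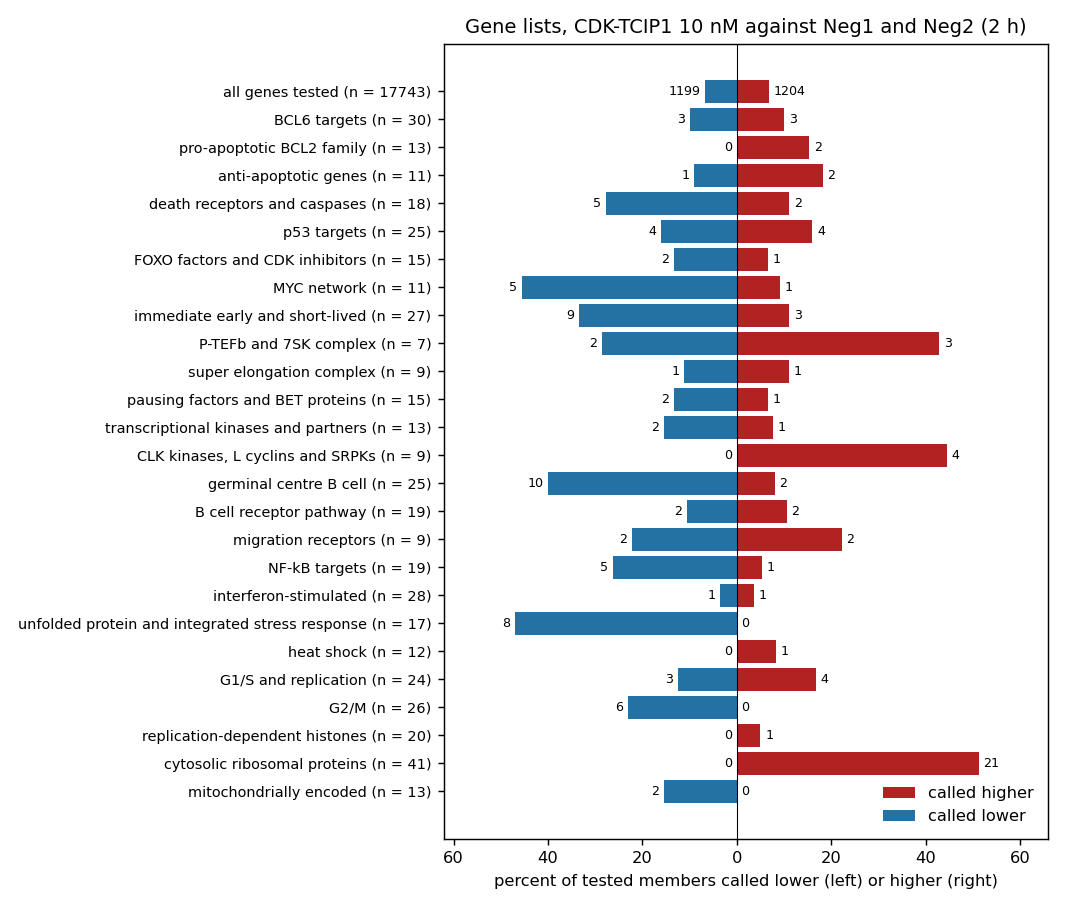
Percent of the tested members of each gene list that were called higher (red, right) or lower (blue, left) at 10 nM against Neg1 and Neg2, with the number of genes beside each bar and all 17743 genes in the top row. Cytosolic ribosomal proteins (21 of 41) and the CLK and cyclin L list (4 of 9) reach farthest to the right, and the stress response (8 of 17) and MYC network (5 of 11) farthest to the left.

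The genes described next as most sensitive to dose were ranked by how much of their 100 nM change was present at 10 nM. They had to be called and not overlapping at 10 nM, which favours large estimates there. High shares therefore follow in part from the choice. The 3 doses are set here against the same 4 libraries of Neg1 and Neg2, so their errors are shared, and the share of the 100 nM log2 change that was present at 10 nM is given as a description. Replicate 1 at 100 nM stood apart from the other 100 nM libraries. Without it and Neg2 replicate 1, calls between 30 and 100 nM went from 788 higher and 1499 lower to 150 and 752. For single genes, values of this step without them are not given. Among 335 called protein-coding genes with a change of at least 1 at 100 nM in the same direction, PAQR8, a membrane progestin receptor (chromosome 6, 52361421 to 52407777), had the highest share, 135%. It had 28.9 and 30.0 CPM at 10 nM, against 8.98 and 8.55 CPM under Neg1 and 7.24 and 9.72 CPM under Neg2. Its log2 change was 1.77 ± 0.13 at 10 nM, 1.72 ± 0.11 at 30 nM and 1.31 ± 0.12 at 100 nM, and the step between the 30 nM and 100 nM libraries was itself a fall of 0.41 ± 0.12 (edgeR adjusted p = 0.0197; 2.62% of genes, 0.8% higher and 1.82% lower, were called between 10 and 30 nM, and 4.44% higher and 8.45% lower between 30 and 100 nM). HEXIM1 came next with 120%, at -1.21 ± 0.15, -1.11 ± 0.12 and -1.01 ± 0.13. Neither of its dose steps passed, with 0.11 ± 0.15 between 10 and 30 nM and 0.09 ± 0.13 between 30 and 100 nM. SCIMP had 118%, RGPD8 110% and PEDS1-UBE2V1 106%, of which RGPD8 belongs to a family of near-identical copies and both it and PEDS1-UBE2V1 lost their calls without replicate 2 at 10 nM (adjusted p = 0.0824 and 0.168).

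Several genes with smaller changes also changed at 10 nM by at least as much as at 100 nM. CD69 averaged 80.4 ± 2.17 CPM at 10 nM, 65.8 ± 6.68 CPM at 30 nM and 54.1 ± 11.3 CPM at 100 nM (SD, n = 2, 4 and 3), against 31.7 ± 2.11 CPM under Neg1 and Neg2 (n = 4). Its log2 changes were 1.34, 1.05 and 0.77, and the separate steps of -0.29 ± 0.11 and -0.28 ± 0.10 did not pass (edgeR adjusted p = 0.165 and 0.0636). CDK9 averaged 69.1 ± 2.18 CPM at 10 nM, 65.3 ± 3.44 CPM at 30 nM and 49.3 ± 8.59 CPM at 100 nM, against 45.5 ± 1.22 CPM under Neg1 and Neg2. At 100 nM its change of 0.12 ± 0.08 did not pass, and between 30 and 100 nM it fell by 0.41 ± 0.08 (edgeR adjusted p = 0.00199). PMAIP1 was at 0.67, 0.69 and 0.50 over the 3 doses, CCNT1 at 0.57, 0.62 and 0.42, CCNL1 at 0.64, 0.69 and 0.41, and POLR2A at -0.51, -0.51 and -0.46. Of these 4, CCNT1 (-0.19 ± 0.06, adjusted p = 0.0484) and CCNL1 (-0.28 ± 0.08, adjusted p = 0.0171) passed as lower at 100 nM than at 30 nM by edgeR.

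MCL1 and 26 other genes were called on opposite sides at the ends of the dose range. MCL1, the anti-apoptotic BCL2 relative, averaged 785 ± 32.8 CPM at 10 nM, 613 ± 21.1 CPM at 30 nM and 431 ± 41.2 CPM at 100 nM, against 674 ± 14.6 CPM under Neg1 and Neg2. Its log2 change was 0.22 ± 0.06 at 10 nM, -0.14 ± 0.05 at 30 nM and -0.64 ± 0.05 at 100 nM, all called. The 10 nM change of MCL1 was 0.19 without replicate 1 at 10 nM, where the call was lost. In length-scaled counts it was 0.14 and missed the threshold (edgeR adjusted p = 0.267). The falls between doses, -0.36 ± 0.06 and -0.51 ± 0.05, passed as well (edgeR adjusted p = 0.00108 and 6.95e-07). In all, 21 of the 1204 genes higher at 10 nM were lower at 100 nM, and 6 of the 1199 lower at 10 nM were higher. Over all genes tested, 22% were higher and 22.9% lower at 100 nM. KRCC1 rose by 0.49 ± 0.12 at 10 nM and fell by 0.72 ± 0.12 at 100 nM, HOMEZ was at 0.52 ± 0.17 and -1.05 ± 0.17, and JRK at 0.40 ± 0.13 and -0.78 ± 0.12. MT-ND4L was lower at 10 nM (-0.44 ± 0.14) and higher at 100 nM (0.54 ± 0.12). At 10 nM the calls of KRCC1, HOMEZ, JRK and MT-ND4L were lost without either library (adjusted p = 0.0678 to 0.352), while their falls or rise at 100 nM were at an adjusted p of 0.000619 or lower.

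At the other end were genes that barely moved at 10 nM and fell far at 100 nM. The deacetylase gene SIRT1 had 70.1 and 75.1 CPM at 10 nM, against 87.9 and 84.3 CPM under Neg1 and 90.6 and 83.2 CPM under Neg2, and changed by -0.25 ± 0.06 at 10 nM, -0.68 ± 0.05 at 30 nM and -1.35 ± 0.06 at 100 nM, so that 18.6% of the change was present at 10 nM. Cyclin E2 (CCNE2) had 20.2%, the ribosome assembly factor GRWD1 21.6%, BLOC1S3 21.9% and KLHL9 22.2%. All 5 fell further both between 10 and 30 nM (edgeR adjusted p = 5.95e-06 for CCNE2 to 0.0164 for BLOC1S3) and between 30 and 100 nM. Their small changes at 10 nM all missed the threshold when replicate 1 at 10 nM was left out, with an adjusted p of 0.066 for CCNE2 to 0.3 for GRWD1. Among the large rises, PKNOX2 grew at each dose step. It averaged 5.31 ± 0.548 CPM at 10 nM, 21.2 ± 2.17 CPM at 30 nM and 59.0 ± 14 CPM at 100 nM, against 0.378 ± 0.278 CPM under Neg1 and Neg2, and both steps of PKNOX2 passed (1.99 ± 0.26 and 1.48 ± 0.19). APOLD1 rose between 10 and 30 nM (0.79 ± 0.18, edgeR adjusted p = 0.0164) but its step between 30 and 100 nM was -0.10 ± 0.15. MEPCE, unlike HEXIM1 of the same complex, fell at both steps, by 0.64 ± 0.09 and 0.49 ± 0.08.

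**Figure D4:**
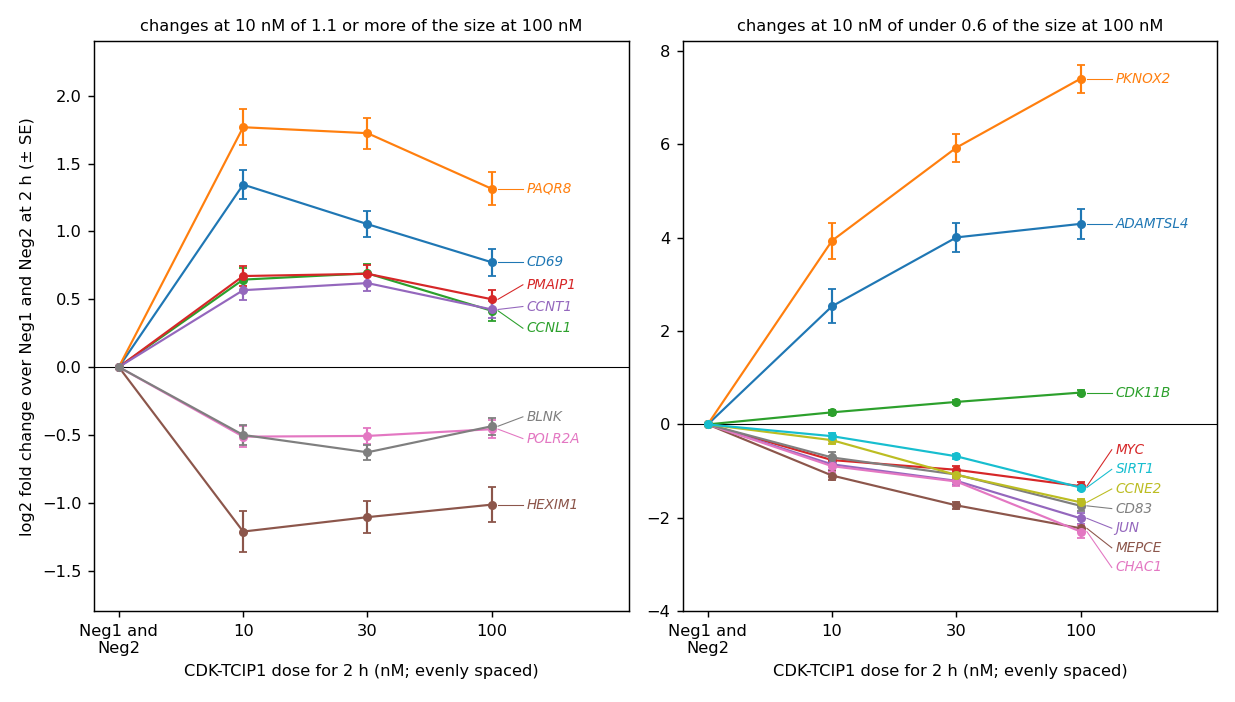
Log2 fold change over Neg1 and Neg2 at 2 h (vertical axes, ± SE) at 10, 30 and 100 nM CDK-TCIP1 (horizontal axes, evenly spaced), with Neg1 and Neg2 set to 0. On the left are 8 genes whose change at 10 nM was at least 1.1 times that at 100 nM, such as CD69 (1.34, then 0.77), and on the right 10 genes whose change at 10 nM was under 0.6 of that at 100 nM, such as SIRT1 (-0.25, then -1.35). The vertical scales differ.

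In libraries that share none with the 10 nM comparison, most genes called at 10 nM moved the same way. At 30 nM and 4 h against Neg1 and Neg2 of that time, 957 of the 1204 genes higher at 10 nM (79.5%) were higher and 8 (0.664%) lower, against 18.5% and 19.7% of all genes. Of the 1199 genes lower at 10 nM, 1000 (83.4%) were lower and 9 (0.751%) higher. The median log2 change at 4 h was 0.48 and -0.55 in the 2 sets. APOLD1 was at 3.90 ± 0.18 at 4 h, CDKN1B at 1.45 ± 0.08, PMAIP1 at 0.70 ± 0.07, HEXIM1 at -1.29 ± 0.13 and S1PR2 at -1.23 ± 0.07, all called by edgeR. AFF1, whose call at 10 nM was lost in length-scaled counts, was at 3.39 ± 0.21 at 4 h, and SAMD8, at -0.18 ± 0.73, did not pass. BCL2L11, BBC3 and FAS, which did not pass at 10 nM, were at 0.45 ± 0.06, 1.09 ± 0.13 and 1.1 ± 0.13 at 4 h and were called. Between 30 and 100 nM at 2 h, 4.44% of all genes were called higher and 8.45% lower. At this step 205 of the genes higher at 10 nM (17%) were higher still at 100 nM and 106 (8.8%) lower. Of those lower at 10 nM, 300 (25%) were lower still and 44 (3.67%) higher. Without the 2 libraries that stood apart these 4 numbers were 70, 53, 182 and 5, and the step between 30 and 100 nM over all genes went to 150 higher and 752 lower, against 788 higher and 1499 lower with them.

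**Figure D5:**
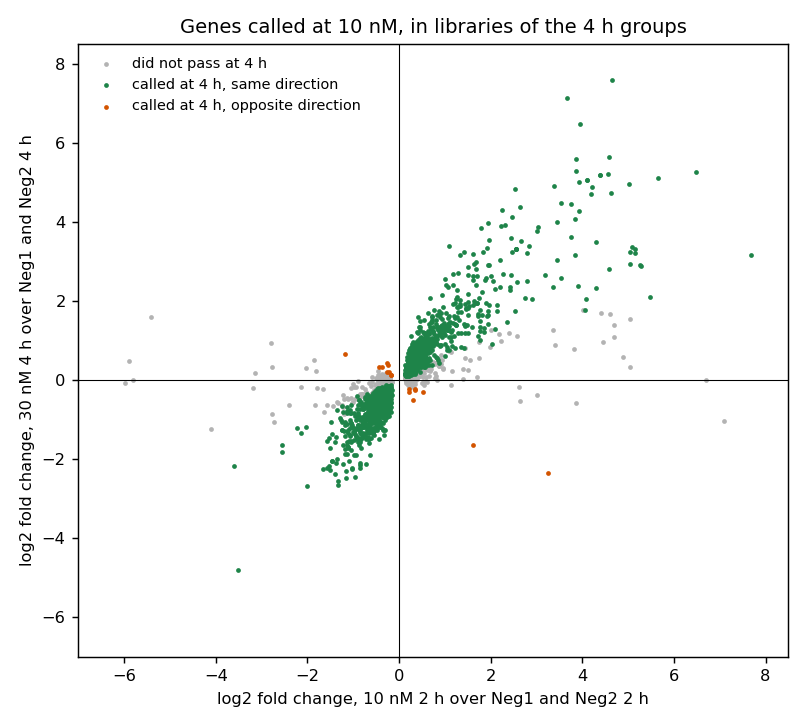
Log2 fold change at 30 nM and 4 h over Neg1 and Neg2 at 4 h (vertical axis) against that at 10 nM and 2 h over Neg1 and Neg2 at 2 h (horizontal axis), for the 2403 genes called at 10 nM. Green points were called in the same direction at 4 h (957 and 1000 genes), orange points in the opposite direction (8 and 9), and grey points did not pass at 4 h.

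Of the 2403 called genes, 2162 are protein-coding (1033 higher and 1129 lower) and 241 belong to other classes. The largest non-coding rise at a level of at least 2 in log2 CPM was that of LINC00273 (chromosome 16, 34158585 to 34160036), with 24.7 and 24.3 CPM at 10 nM, against 2.07 and 2.78 CPM under Neg1 and 0.151 and 0.663 CPM under Neg2. It changed by 4.59 ± 0.24 (edgeR adjusted p = 2.05e-12). Like the largest protein-coding changes, the 3 largest non-coding rises and falls were chosen as called and not overlapping. Their separation and call were therefore fixed by the choice. LINC00273 passed the level filter through treated groups in which it was high. ENSG00000264063 and ENSG00000277437 on chromosome 21 held identical values in every library, as copies that share all reads do, and rose by 4.38 ± 0.27. They are 1 measurement, as are MIR3648-1 and MIR3648-2 (4.11) and 4 gene entries of 5.8S ribosomal RNA (2.55). Whether the reads given to LINC00273 come from that locus or from similar sequence elsewhere was not tested. Among non-coding falls were ENSG00000240040 (-1.46 ± 0.20), ENSG00000214797 (-1.39 ± 0.22) and LINC02909 (-1.33 ± 0.17).

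Protein-coding genes higher at 10 nM had a median span of 29 kb and those lower 34.6 kb, against 32.2 kb over all tested, and single-exon genes made up 0.968% and 2.48%, against 1.72%. Position below an active gene was more frequent among the large rises, as a description with no test. Of the 238 genes called higher by at least 1, 38 (16%) began within 5 kb below the end of a gene on the same strand with at least 20 CPM under Neg1 and Neg2, against 6 of 112 (5.36%) called lower by at least 1 and 1214 of 17743 (6.84%) over all tested. Over all called genes the numbers were 129 of 1204 higher (10.7%) and 56 of 1199 lower (4.67%). LCT begins 2.45 kb below MCM6, GCNA 2.51 kb below OGT, CCDC17 3.25 kb below GPBP1L1 and APOLD1 3.55 kb below CDKN1B. MCM6, OGT and GPBP1L1 were at 0.06 ± 0.05, 0.16 ± 0.07 and -0.12 ± 0.06 at 10 nM, and none of the 3 passed. The strand setting of the counting is not given in the sources used here.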

How the data were processed

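RNA of SUDHL5 cells was enriched for poly(A) and sequenced in paired ends, per the labels' protocols. Per the submitters' processing notes, the tools were FastQC, cutadapt, kallisto and DESeq2, whose versions, transcript set and strand setting the sources used here do not give. For 227912 transcripts the authors deposited an estimated count made by kallisto, which divides each read among the transcripts it matches, and a deposited TPM.

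Identifiers without version were matched to GENCODE 29 on GRCh38 (205964 matched), and the rest, 1.16 to 1.28% of a library, stayed out. Another annotation may have been used upstream. Estimated counts were summed over 58592 genes (58201 with a symbol) and rounded. Genes were filtered with filterByExpr, leaving 17743. A single edgeR 4.0.16 quasi-likelihood fit (R 4.3.3, TMM, 9 groups, 14 residual degrees of freedom, biological coefficient of variation 0.0988) gave all tests, with Benjamini-Hochberg adjustment over all genes and a call at an adjusted p under 0.05. A gene rose, fell or changed where it was called. The contrast was 10 nM minus the mean of the Neg1 and Neg2 coefficients at 2 h. Fold changes are relative to the bulk of genes, so a shift of all mRNA would not show. SEs were derived from each fold change and its F statistic. Levels are CPM after TMM. In bulk RNA, fewer cells of a type and less RNA per cell cannot be told apart.

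Groups came from the sample titles. Whether replicates came from separate cultures is not stated, so the p-values rest on a spread that may be technical. Replicates differed by more than sampling noise (chi-square per degree of freedom 6.15 at 10 nM, 5.79 for Neg1 and 13.5 for Neg2), and none was counted as a repeat. Named genes were the 10 strongest rises and the 10 strongest falls (called, protein-coding, 2 or more in mean log2 CPM, libraries not overlapping), 12 genes given whatever their values, in each list the 2 strongest called rises and falls, the 5 highest and lowest dose shares, 3 non-coding rises and falls, and 4 genes called with opposite sign at 100 nM. The last 3 kinds met the same conditions of call, level and overlap. Other called list members are named after their values were seen. Results of a few list members are not reported here. Members, lists and rule were chosen with earlier results of these data known. Alternatives were RLE factors, no filter and a filter of 1 CPM in 2 libraries, DESeq2 1.42.0, counts scaled by transcript length (deposited TPM summed per gene and rescaled to each library's total, 23630 genes tested), the 6 libraries alone, a pooled reference, DMSO, a replicate block, and libraries left out. The fitting scripts were tested on simulated data. Promoters are RefSeq windows of GRCh38.p14, present for 81.1% of protein-coding genes called higher, 81.5% of those called lower and 80.3% of those tested.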

Additional observations from a re-analysis of the deposited data

Results flagged for a closer look

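In groups of 4 libraries, 18 of 218 sets of values held a library whose gap to the nearest of the others, divided by the range of the group, exceeded the critical value of Dixon's test. Chance flags about 1 in 20. Neg2 replicate 1 at 2 h gave 8 of the 11 such values among the Neg1 and Neg2 libraries: RBPMS at 3.77 CPM, CDK11B at 50.9, MYBL1 at 322, CHAC1 at 32.8, RPS12 at 406, RPL27 at 417, RGPD8 at 7.80 and KRCC1 at 27.7 CPM. It was high in RBPMS, MYBL1 and RGPD8 and low in the other 5. Neg1 replicate 1 gave the other 3, with FOSB at 7.70, CCNL1 at 121 and KLHL9 at 43.5 CPM.

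Among the 4 libraries of CDK-TCIP1 at 30 nM and 2 h, FAS was low at 6.04 CPM in replicate 4, MYBL1 high at 392 and MT-ND6 low at 495 CPM in replicate 3, MALT1 low at 80.5 CPM in replicate 2, and P2RY8 high at 235 and CCNE2 low at 17 CPM in replicate 1. The total of 1 library of that group, 26373153 estimated counts, lay above the others. These 30 nM libraries do not enter the 10 nM comparison except through the shared estimate of spread.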

How the results depend on the processing

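None of the 107 named genes was called in the opposite direction under an alternative, and 54 kept their side of the threshold in every alternative. The 10 nM counts stayed within 1.5 times of 1204 higher and 1199 lower with RLE factors (1250 and 1170), DESeq2 (1405 and 1327), no filter, the stricter filter, a pooled reference, DMSO at 4 h and without the 2 libraries that stood apart. In the 6 libraries alone 744 were higher. With 1 library left out, 518 to 1303 were higher and 460 to 1116 lower. The lone library at 10 nM is then assumed to vary like the other groups.

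Counts scaled by transcript length gave the largest shifts: 426 higher and 311 lower at 10 nM, 191 and 157 against Neg1, 242 and 207 against Neg2, 1900 and 1859 at 30 nM, 2560 higher at 100 nM, 89 and 353 between 30 and 100 nM, and 1871 and 2009 at 4 h. Members called between 30 and 100 nM were then 48 and 27 (genes higher at 10 nM) and 5 and 90 (genes lower). Of 104 called named genes 44 missed the threshold, and of all genes called 2 at 10 nM, 2 against Neg2, 8 at 30 nM, 15 at 100 nM and 9 at 4 h were called in the opposite direction. These counts tested 23630 genes. The cause was not tested. Without the 2 libraries that stood apart, 434 were higher and 547 lower against Neg2, and between 30 and 100 nM 150 and 752, with members at 70, 53, 5 and 182. DESeq2 gave 1257 higher between 30 and 100 nM. With no filter, 24 genes lower at 10 nM were higher at 100 nM than at 30 nM, and 5 were higher at 30 nM and 4 h.

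Whether replicate numbers pair the samples is not stated. Deviations of same-numbered libraries correlated over genes at 0.02, -0.13 and -0.06, which cannot decide this with 2 libraries in each group. With the number as a replicate block, 1234 were higher and 1240 lower. Depth limits genes near 1 CPM: PRDM1, with 0.651 CPM at 10 nM, had an SE of 0.74 on the log2 scale.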
